A study of Mus musculus with 6 samples.

Results

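Histone acetyltransferases transfer acetyl groups from acetyl-CoA to lysines of the histone tails. The 8 mouse genes described here encode enzymes of 3 families: Ep300 and Crebbp (the p300/CBP family), Kat2a and Kat2b (the GCN5/PCAF family), and Kat5, Kat6a, Kat7 and Kat8 (the MYST family). They were taken by name: every interval of 6 lists of H3K9ac peaks whose assigned gene was one of the 8 symbols was kept, whatever its region class. That gave 46 of 42851 intervals. Of the 8 genes, 7 had at least 1 interval and Kat2a had none, among 10621 gene names in the lists.

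Each list came from chromatin immunoprecipitation with sequencing of H3K9ac, histone H3 acetylated at lysine 9, which is found mainly at promoters in use. The chromatin was from intestinal epithelial cells isolated from the distal gut of C57BL/6 mice. Conventional mice carried an ordinary microbiota, monoassociated mice carried Escherichia coli (E. coli) as their sole microbe and germ-free mice carried none, with 2 libraries per group. All groups share the strain, the tissue and the antibody. The labels give no age, and nothing in them says that the 2 libraries of a group came from separate animals, so their spread may be technical.

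p300 and CBP are large coactivators that are recruited by many DNA-binding factors and acetylate histones at enhancers and promoters. GCN5 and PCAF, the products of Kat2a and Kat2b, are the catalytic subunits of the SAGA and ATAC complexes and are known for acetylating lysine 9 of histone H3. The MYST enzymes work in complexes of their own: TIP60 (Kat5) in the TIP60-p400 complex, MOZ (Kat6a) and HBO1 (Kat7) with BRPF or JADE scaffold proteins, and MOF (Kat8) in the MSL and NSL complexes. H3K9ac was measured here at the genes that encode these enzymes, not the activity of the enzymes.

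The libraries differed greatly in how much was called. There were 3117 and 15352 intervals in the conventional lists (replicates 1 and 2), 1988 and 870 with E. coli and 4430 and 17094 for germ-free mice. Conventional replicate 2 and germ-free replicate 2 thus stood apart from the other 4, and most calls at the acetyltransferase genes came from these 2 lists. The background pileup, which scales with the reads used, was between 0.381 and 0.733 extended reads per base, and E. coli replicate 1, at 0.690, was close to the upper end. Of 12 markers of intestinal epithelium, 8 had a promoter peak in all 6 libraries and all 12 in at least 1. None of 13 markers of lymphoid, myeloid, stromal, endothelial, muscle and nerve cells had one in any library.

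The promoters of the pairs Ep300 and Crebbp, and Kat2a and Kat2b, are shown because these paralogues differed in their calls. Each sequence is the RefSeq promoter on GRCm38.p6 (the assembly behind mm10), 250 bases before to 50 after the start site, read in the direction of the gene. Capitals mark matches to the letters searched for, given after the sequences.
Ep300, chr15:81585964-81586263, plus strand: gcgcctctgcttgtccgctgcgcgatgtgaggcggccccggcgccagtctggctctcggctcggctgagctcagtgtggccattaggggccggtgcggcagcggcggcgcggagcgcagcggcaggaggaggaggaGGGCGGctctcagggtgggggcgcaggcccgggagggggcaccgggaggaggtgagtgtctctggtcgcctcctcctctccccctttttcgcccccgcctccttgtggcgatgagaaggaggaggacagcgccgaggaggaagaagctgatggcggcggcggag
Crebbp, chr16:4213355-4213654, minus strand: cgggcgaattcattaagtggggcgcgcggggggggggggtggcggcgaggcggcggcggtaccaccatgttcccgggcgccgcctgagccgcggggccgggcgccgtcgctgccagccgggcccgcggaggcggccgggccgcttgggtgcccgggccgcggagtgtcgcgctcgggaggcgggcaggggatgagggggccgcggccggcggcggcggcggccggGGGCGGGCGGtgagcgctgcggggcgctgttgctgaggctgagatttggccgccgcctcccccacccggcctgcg
Kat2a, chr11:100712418-100712717, minus strand: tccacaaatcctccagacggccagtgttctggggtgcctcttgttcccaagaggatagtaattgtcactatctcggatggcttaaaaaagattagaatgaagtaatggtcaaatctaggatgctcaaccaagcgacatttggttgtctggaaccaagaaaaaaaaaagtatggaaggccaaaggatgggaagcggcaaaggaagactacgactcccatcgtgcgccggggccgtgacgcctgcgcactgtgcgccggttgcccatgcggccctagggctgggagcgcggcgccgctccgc
Kat2b, chr17:53566721-53567020, plus strand: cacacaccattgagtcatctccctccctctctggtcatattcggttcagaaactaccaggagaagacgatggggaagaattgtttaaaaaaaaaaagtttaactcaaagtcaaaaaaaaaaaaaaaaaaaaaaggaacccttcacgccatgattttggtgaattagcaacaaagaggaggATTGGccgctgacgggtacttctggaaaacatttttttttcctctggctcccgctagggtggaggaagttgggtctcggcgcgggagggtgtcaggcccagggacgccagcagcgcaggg

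The 4 promoters differed widely in base composition. The Crebbp promoter had a GC content of 82.0%, higher than 99.5% of the 32851 promoters in the RefSeq table, and 49 CpG dinucleotides. Ep300 had 72.3% GC and 30 CpG dinucleotides, Kat2a 54.3% and 19, and Kat2b 47.0% and 11. The median of all promoters was 52.7% GC. Observed over expected CpG was 0.80 at Ep300, 1.02 at Crebbp, 0.86 at Kat2a and 0.67 at Kat2b, against a median of 0.38. All 4 were therefore above the median in CpG, including Kat2a, which had no call.

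A total of 8 short motifs were searched on both strands of the 10 promoters that the table gave for 7 of the genes; Kat6a was not among them. The GC box GGGCGG was found at Ep300 and, as 2 overlapping copies, at Crebbp, and also at Kat5 and Kat8. In all, 5 of the 10 promoters held it, and 35.7% of all promoters in the table do. The CCAAT box, letters CCAAT, was found on the minus strand at Kat2b and also at Kat5, Kat7 and Kat8, in 5 of the 10 promoters, and 37.4% of all promoters hold it. At Kat5, the upstream of its 2 promoters held 2 copies of the ETS core CCGGAAG, which Kat7 and Kat8 held as well (3 of the 10 promoters, against 8.86% of all). The same Kat5 promoter held the E-box CACGTG (1 of the 10, against 7.15% of all). No match was found at these genes to the cAMP response element TGACGTCA (1.79%), the TATA box TATAAA (13.6%), the NRF1 core GCGCATGC (2.71%) or the YY1 core AAGATGGC (2.75%). The Kat2a promoter window held no match to any of the 8. A match describes letters only and is not a binding site.

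A promoter peak was an interval that overlapped the 1 kb on either side of the start site of the gene. Ep300 had one in all 6 libraries, which 0.991% of 21900 protein-coding genes had. Crebbp had one in 3 libraries, Kat2b, Kat6a and Kat7 in 2, Kat5 and Kat8 in 1 and Kat2a in none. In all, 7 of 8 acetyltransferase genes had a promoter peak in at least 1 library, against 37.0% of protein-coding genes. These counts place Ep300 apart from the other 7, while the other genes differ from their neighbours in this order by at most 1 library.

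**Figure D1:**
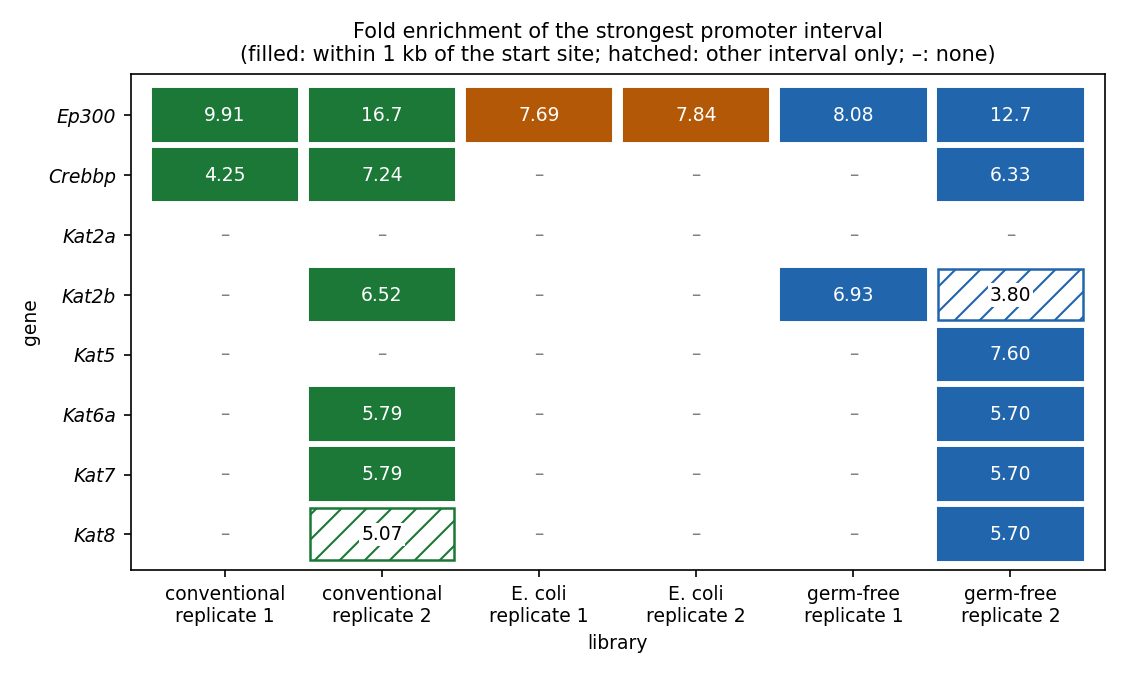
Rows are the 8 genes, columns the 6 libraries, coloured by group (conventional green, E. coli orange, germ-free blue). The number is the fold enrichment of the promoter interval with the best q-value, or of the other interval where hatched, a value relative to its own library. Filled cells have an interval within 1 kb of the start site, hatched cells another interval only and a dash none. Ep300 is filled in all 6 columns, Kat2a in none, and both E. coli columns hold Ep300 alone.

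By library, promoter peaks were called at 2 and 5 of the 8 genes in conventional replicates 1 and 2, at 1 gene in each E. coli library and at 2 and 6 genes in germ-free replicates 1 and 2. Of all protein-coding genes, 9.08% and 32.8% were called in the conventional libraries, 4.18% and 1.86% with E. coli and 11.0% and 29.6% in germ-free libraries. As a share, the acetyltransferase genes stood at 25.0% and 62.5%, 12.5% and 12.5%, and 25.0% and 75.0% in the same order of groups. Their share was above that of all genes in each library, and it followed the length of the lists. With 8 genes, 1 call moves the share by 12.5 percentage points.

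**Figure D2:**
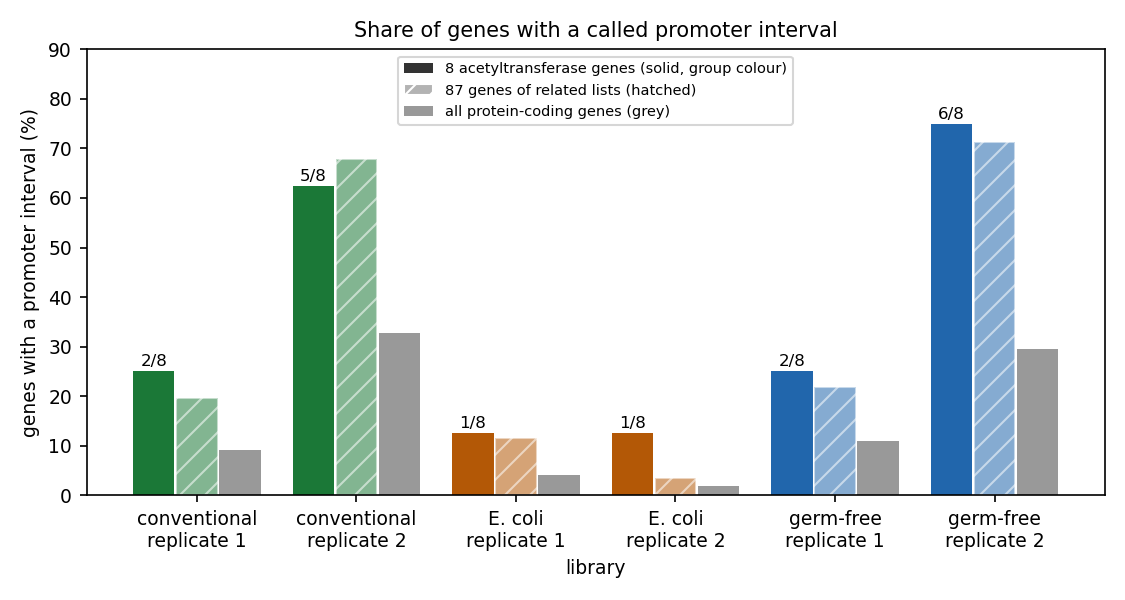
Bars give the percentage of genes with a promoter peak in each library, for the 8 acetyltransferase genes (solid, with the count above), 87 genes of related lists (hatched) and all 21900 protein-coding genes (grey). The solid bars reach 62.5% and 75.0% in conventional replicate 2 and germ-free replicate 2 and stay at 12.5% in both E. coli libraries.

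Ep300, which encodes p300, carried the mark at its start site (chromosome 15, 81586214, plus strand) in every library. Its strongest promoter interval was enriched 9.91 and 16.7 times over background in conventional mice, 7.69 and 7.84 times with E. coli and 8.08 and 12.7 times in germ-free mice. These folds are the authors' values, each against the background of its own library, and are used to order the intervals of one list. By q-value the interval ranked 151 of 3117 and 95 of 15352 in the conventional lists. It ranked 260 of 1988 and 162 of 870 in the E. coli lists, and 333 of 4430 and 246 of 17094 in the germ-free lists. It was thus in the top 4.84% and 0.619%, 13.1% and 18.6%, and 7.52% and 1.44% of the lists, and ahead of every other acetyltransferase gene in each. In E. coli replicate 2 these values belong to a piece from -688 to -504 bases, which did not reach the start site. The piece over the start site there, from -173 to 22 bases, was enriched 4.99 times and ranked 585 of 870 (top 67.2%).

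The Ep300 promoter interval differed in length between libraries. In the conventional libraries the main interval ran from -749 to 246 and from -863 to 831 bases relative to the start site. In E. coli replicate 1 it ran from -705 to 37, and in E. coli replicate 2 it was called as 2 pieces, from -688 to -504 and from -173 to 22. In the germ-free libraries it ran from -760 to 452 and from -849 to 815. In both E. coli lists the call ended within 37 bases downstream of the start site, whereas the main interval reached 246 bases or more downstream in the other 4. The 2 stretches of the promoter called in all 6 libraries were 81585526 to 81585710 (185 bp) and 81586041 to 81586236 (196 bp). The second covers 196 bases of the promoter sequence shown above, which was covered over 300 bases in both conventional and both germ-free libraries and over 288 and 196 bases in the E. coli libraries.

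Summits were listed in 5 libraries. Conventional replicate 1 had summits at -160 and 56 bases in its main interval and at 621 in a second promoter interval, and conventional replicate 2 had them at -510, -147 and 109. E. coli replicates 1 and 2 had summits at -585 and -60, and at -608 and -57. Germ-free replicate 1 had summits at -524, -281 and 128. Both E. coli libraries thus had 2 summits upstream of the start site at nearly the same positions, and neither had one downstream. Summits lie inside called intervals, and the E. coli calls ended at 37 and 22 bases, before the downstream summits of the other libraries. The lack of a downstream summit is therefore not separate from where these calls ended.

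Ep300 also had an intergenic interval in all 6 libraries, between 63.2 and 63.5 kb upstream of its start site. Its fold was 7.08 and 9.41 in conventional mice, 4.73 and 5.70 with E. coli and 4.62 and 8.87 in germ-free mice. The stretch called in all 6 was chromosome 15, 81522608 to 81522746 (139 bp), and the nearest gene upstream of it in the GRCm38.p6 table was the pseudogene Gm5218, which ends at 81512226. The authors assigned it to Ep300 by position, and no measurement here links it to that gene. Of 378 merged regions called in all 6 libraries, 72 were intergenic in every list. Among the protein-coding genes, Ep300 was the 1 gene with both a promoter peak in all 6 libraries and such an intergenic region assigned to it, a feature singled out after the values were seen. By fold the interval placed 62 and 56 of 72 in conventional, 70 and 64 in E. coli and 72 and 57 in germ-free mice, so it was among the weaker of these regions.

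**Figure D3:**
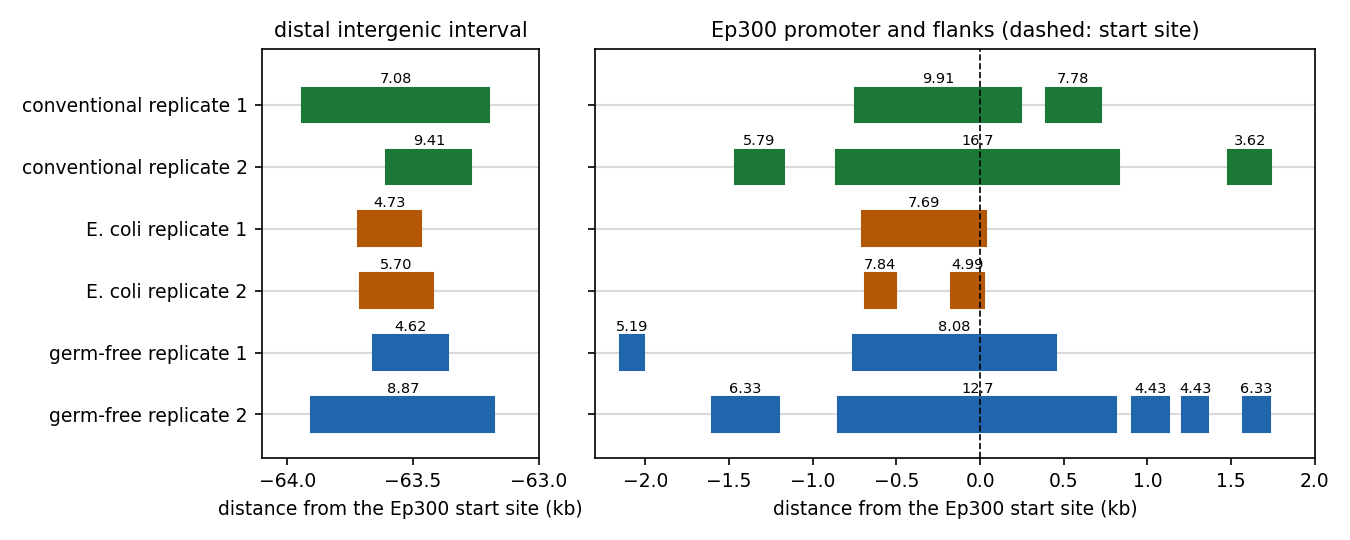
Bars show the called intervals assigned to Ep300 in each library by distance from its start site (kb), coloured by group, with the fold of each interval above it. The left panel shows the distal interval, present in all 6 rows with its nearer edge 63.2 to 63.5 kb upstream, and the right panel the promoter, where the E. coli bars are shortest. An interval 31.6 kb upstream in conventional replicate 2 is outside the panels.

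Weaker flanking intervals at Ep300 appeared mainly in the long lists. Conventional replicate 2 had an upstream interval from -1467 to -1172 bases (5.79-fold), and germ-free replicate 2 had one from -1605 to -1199 (6.33-fold). Downstream, conventional replicate 2 had an intronic interval from 1481 to 1740 bases at 3.62-fold, the lowest fold of its list. Germ-free replicate 2 had an intronic interval from 1569 to 1734 at 6.33-fold, at nearly the same place. It also had 2 closer intervals at 4.43-fold, a second promoter interval from 907 to 1128 and an intronic one from 1205 to 1364. Conventional replicate 1 had a second promoter interval from 391 to 723 bases at 7.78-fold. Germ-free replicate 1 had a separate upstream interval from -2154 to -2009 at 5.19-fold. A further intergenic interval in conventional replicate 2, from -31763 to -31617 bases at 3.62-fold, was called in that library alone.

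In all, intervals assigned to Ep300 covered 2.07 and 2.74 kb in conventional, 0.995 and 0.672 kb in E. coli and 1.66 and 3.35 kb in germ-free libraries. Both E. coli libraries lay below the other 4. The conventional libraries averaged 2.41 ± 0.470 kb and the E. coli libraries 0.834 ± 0.228 kb (SD, n = 2 each), a difference of 1.57 kb (exact permutation p = 0.333, two-sided). Against germ-free libraries at 2.5 ± 1.2 kb (SD, n = 2), E. coli minus germ-free was -1.67 kb (exact permutation p = 0.333). It was -0.824 kb without germ-free replicate 2 and -2.51 kb without germ-free replicate 1. Conventional minus germ-free was -0.0970 kb (exact permutation p = 1), turning to 0.235 kb without conventional replicate 1 and 0.748 kb without germ-free replicate 2. The other single libraries moved it to no less than -0.942 kb, without germ-free replicate 1. Counting promoter intervals alone, conventional minus E. coli was 0.950 kb and E. coli minus germ-free -0.988 kb. With 2 libraries against 2 the smallest possible p is 0.333, so no difference could pass 0.05. As a share of all called sequence the directions turned: Ep300 made up 2.1 and 0.462 per mille of conventional, 1.73 and 2.20 of E. coli and 1.37 and 0.505 of germ-free lists. The lowest shares belonged to the 2 longest lists. The part of list length in the group differences was not tested.

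Crebbp, which encodes CBP, the paralogue of p300, had a promoter peak in both conventional libraries, in neither E. coli library and in 1 of 2 germ-free libraries. Its fold was 4.25 and 7.24 in the conventional lists and 6.33 in germ-free replicate 2. The value of conventional replicate 1 was the lowest fold its list contains, so this call lay at the detection limit of that library. The intervals fell on different sides of the start site used here (chromosome 16, 4213404, minus strand). In the GRCm38.p6 table the gene extends further upstream, to 4213957, so the sides hold for the start site used here alone. Conventional replicate 1 was called from -269 to -51 bases, conventional replicate 2 from -712 to 403 and germ-free replicate 2 from 129 to 489. The conventional intervals overlapped over 219 bp, those of conventional replicate 2 and germ-free replicate 2 over 275 bp, and those of conventional replicate 1 and germ-free replicate 2 did not overlap. In germ-free replicate 1 the nearest interval of any gene was 328 kb away, and in the E. coli libraries 949 and 953 kb.

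Kat2b, which encodes PCAF, had a promoter peak in conventional replicate 2 (6.52-fold) and germ-free replicate 1 (6.93-fold). In germ-free replicate 2 it had an intronic interval from 1166 to 1312 bases downstream of the start site (chromosome 17, 53566971, plus strand), at 3.8-fold, the lowest fold of that list. Conventional replicate 2 had 4 intervals, from -425 to -262, -105 to 132, 266 to 1014 and 1124 to 1298 bases. The 2 germ-free replicate 1 intervals, from 476 to 621 and from 805 to 950, both lay inside the third of these. Each was 146 bp long, the shortest length in the germ-free replicate 1 list. The second was at 4.04-fold, the lowest fold of that list. The germ-free libraries shared no base at Kat2b. Kat2b ranked 600 of 4430 in germ-free replicate 1, whose other acetyltransferase call was Ep300, and it was absent from the promoter calls of germ-free replicate 2, a list of 17094 intervals.

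Kat2a, which encodes GCN5, had no interval in any list. The interval nearest to its start site (chromosome 11, 100712467 in the RefSeq table) was 25.2 and 19.9 kb away in conventional, 25.3 and 375 kb in E. coli and 24.9 and 8.48 kb in germ-free libraries. The 24.9 to 25.3 kb intervals were promoter peaks of Rab5c, a neighbouring gene for an endosomal GTPase, and the 8.48 kb one was a promoter peak of Dhx58, which encodes an RNA sensor. The lists hold no enrichment below 3.62-fold to 4.28-fold, so a weaker mark at Kat2a would not be seen.

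Among the MYST genes, Kat6a and Kat7 had promoter peaks in the 2 longest lists alone, conventional replicate 2 and germ-free replicate 2. At Kat6a, which encodes MOZ (chromosome 8, start site 22859539, plus strand), the strongest interval lay downstream in both, from 668 to 1047 bases (5.79-fold) and from 585 to 952 (5.70-fold), with 285 bp in common. Conventional replicate 2 had a second interval from -1119 to -705 bases (5.07-fold). The long noncoding RNA gene Gm46036 overlaps the 5′ end of Kat6a in the GRCm38.p6 table, and the intervals cannot be divided between them. At Kat7, which encodes HBO1 (chromosome 11, start site 95310246, minus strand), conventional replicate 2 had intervals from -599 to -388, 74 to 402 and 1034 to 1180 bases. Germ-free replicate 2 had intervals from -764 to -388, -1 to 357, 834 to 1148 and 1359 to 1755 bases. The 2 libraries overlapped at 3 places over 611 bp, the most of the MYST genes. The folds lay between 3.62 and 5.79. The noncoding gene Gm11520 (95310416 to 95324593) begins on the other side of the Kat7 start site, and the upstream intervals lie inside it.

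Kat5 and Kat8 had a promoter peak in germ-free replicate 2 alone. The Kat5 interval (TIP60; chromosome 19, start site 5610094, minus strand) spanned the start site from -277 to 441 bases and had 7.6-fold enrichment. It ranked 1962 of 17094, second to Ep300 among the acetyltransferase genes of that list. Conventional replicate 2, with 15352 intervals, had none at Kat5, its nearest being a promoter peak of Rnaseh2c 7.77 kb away. At Kat8, which encodes MOF (chromosome 7, start site 127912517, plus strand), germ-free replicate 2 had an interval from -355 to -188 bases (5.70-fold) and an exonic one from 9623 to 9878 (4.43-fold). Conventional replicate 2 had an intronic interval from 2457 to 2632 bases (5.07-fold), and the libraries shared no base there.

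**Figure D4:**
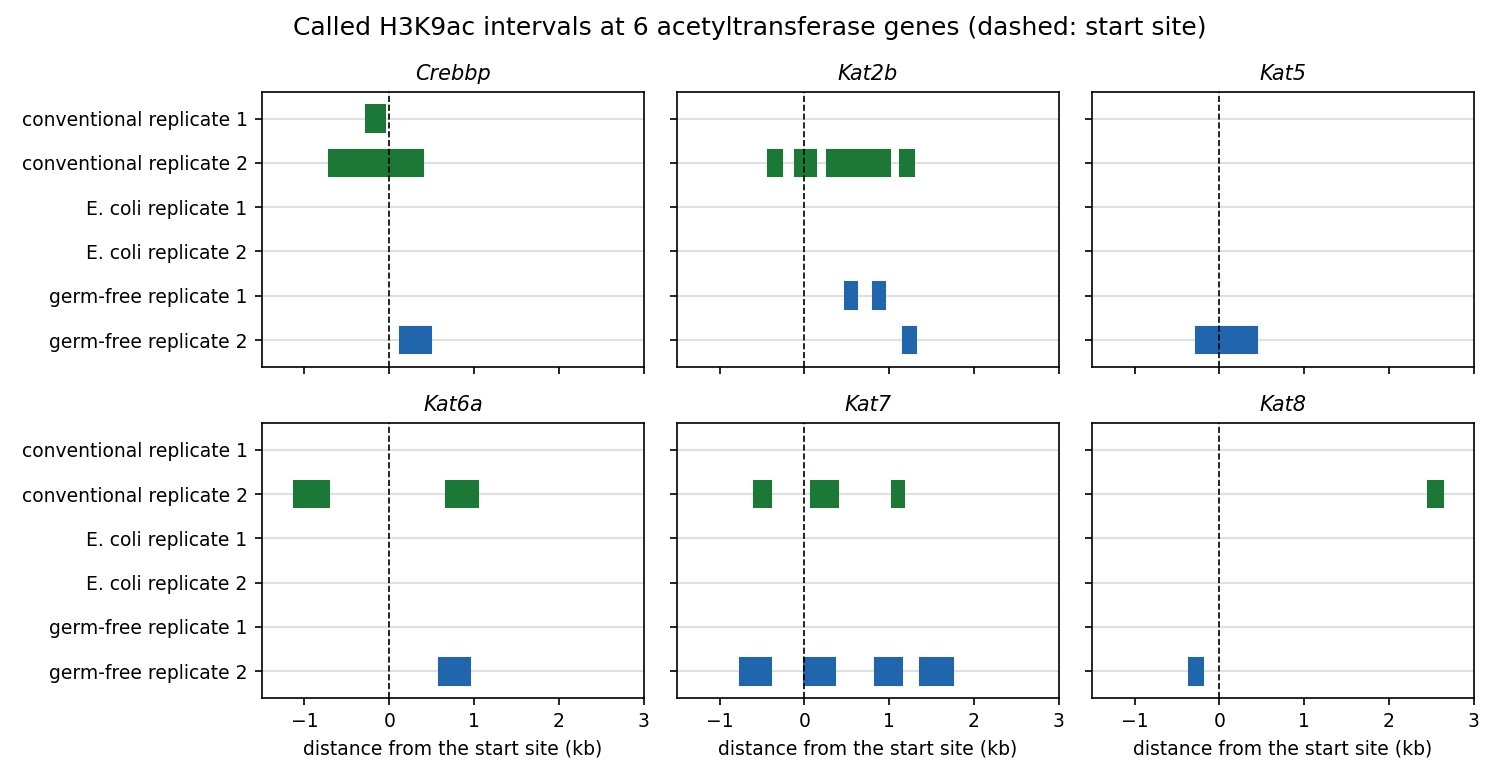
Each panel shows the called intervals of 1 gene in the 6 libraries by distance from its start site (kb), coloured by group. Kat6a, Kat7 and Kat8 have bars in conventional replicate 2 and germ-free replicate 2 alone, Kat5 in germ-free replicate 2 alone, and the E. coli rows are empty in all 6 panels. The Kat8 interval from 9623 bases is outside its panel.

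For the housing groups, genes with a promoter peak in both libraries of one group and neither of another were counted. Conventional against E. coli mice asks what differs between an ordinary microbiota and 1 bacterium. Of 2 acetyltransferase genes with a peak in both conventional libraries, 1, Crebbp, had none in either E. coli library, and Ep300 had one in both. Among all genes this share was 62.0% (1219 of 1966). The Crebbp call in conventional replicate 1 was lost, and the count was 0, when -log10 q had to reach 5 and when each list was cut to its 870 top intervals. Without conventional replicate 1 it was 4 of 5 genes (Crebbp, Kat2b, Kat6a and Kat7), against 85.3% of all genes.

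For E. coli against germ-free, Ep300 was the 1 acetyltransferase gene marked in either E. coli library, and it was marked in all 4 libraries of these groups. In neither direction was any of the 8 genes marked in both libraries of one group and absent from the other. The share among all genes was 0% for E. coli but not germ-free (0 of 247) and 65.8% for germ-free but not E. coli (1461 of 2221). With germ-free replicate 1 left out, 5 of 6 genes (Crebbp, Kat5, Kat6a, Kat7 and Kat8) had a germ-free peak and no E. coli peak, against 84% of all genes. Without germ-free replicate 2 this was 1 of 2, Kat2b, against 67.9%.

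For conventional against germ-free, neither of the 2 genes marked in both conventional libraries lacked a peak in both germ-free libraries (3.36% of all genes did), and Ep300, marked in both germ-free libraries, was marked in both conventional ones (2.57% of all genes were not). Without germ-free replicate 2 Crebbp was marked in both conventional and not in the remaining germ-free library (1 of 2, against 37.7% of all genes). Without germ-free replicate 1, Kat5 and Kat8 were marked in the remaining germ-free library and in neither conventional one (2 of 6, against 12.8%). Of the 247 genes marked in both E. coli libraries, Ep300 among them, 0% were without a call in both conventional ones.

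The same 6-library pattern of promoter calls was common for some of these genes and rare for others. The pattern of Kat6a and Kat7, calls in conventional replicate 2 and germ-free replicate 2 alone, was shared by 2654 protein-coding genes, 32.8% of all those marked in any library. That of Ep300 was shared by 217 (2.68%), that of Crebbp by 556 (6.86%) and that of Kat5 and Kat8 by 764 (9.43%). The Kat2b pattern, conventional replicate 2 and germ-free replicate 1, was shared by 101 (1.25%). Of 87 genes for related enzymes, complex subunits and acetyl-CoA supply, marked or not, 28 had the pattern of Kat6a and Kat7. Among all protein-coding genes, marked or not, 12.1% had it. The 28 include Kat6b, the paralogue of Kat6a, and Ep400, the ATPase subunit that works with Kat5. Another 6 had the pattern of Crebbp, namely Ncoa3, Taf12, Dmap1, Kansl1, Cited2 and Acss1, against 2.54% of all protein-coding genes. None had that of Kat2b, against 0.461%.

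The genes for related enzymes and partners were also marked mostly in the 2 longest lists. Of the 87 genes, 68 (78.2%) had a promoter peak in at least 1 library, against 37.0% of all protein-coding genes. Per library it was 17 and 59 genes in conventional, 10 and 3 in E. coli and 19 and 62 in germ-free mice, or 19.5% and 67.8%, 11.5% and 3.45%, and 21.8% and 71.3%. Over all genes it was 9.08% and 32.8%, 4.18% and 1.86%, and 11.0% and 29.6% for the same groups. A peak in all 6 libraries was called at 3 of the 87, against 0.991% of all genes. Epc1, which encodes a scaffold subunit of the TIP60-p400 complex, had folds of 18.4 and 28.2 in conventional mice, 10.1 and 12.1 with E. coli and 17.9 and 22.2 in germ-free mice, at a promoter shared with Mir1893. Its catalytic partner Kat5 was called in 1 library. Msl1, the scaffold of the MSL complex of Kat8, had folds of 7.08 and 13.8 in conventional mice, 10.1 and 4.99 with E. coli and 5.77 and 6.97 in germ-free mice. Tada3, an adaptor subunit of SAGA and ATAC, had folds of 6.37 and 8.69 in conventional mice, 5.92 and 5.70 with E. coli and 5.77 and 7.6 in germ-free mice, at a promoter shared with Arpc4. Kat2a and Kat2b, the catalytic subunits of those complexes, were called in at most 2 libraries. The strongest Tada3 intervals of the E. coli libraries shared no base with those of conventional replicate 2 or germ-free replicate 1. That of E. coli replicate 2 also missed that of conventional replicate 1. At Msl1, the strongest interval of conventional replicate 1 overlapped that of neither germ-free library. Those of E. coli replicate 2 and germ-free replicate 1 did not overlap there either. Epc1, Msl1 and Tada3 are named because they were called in all 6 libraries. Other subunit genes of the same complexes, such as Ruvbl1, Tada2a and Msl3, had no promoter peak in any.

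By list, 19 of 23 SAGA and ATAC subunits, 12 of 16 TIP60-p400 subunits, 6 of 8 MOZ and HBO1 subunits and 8 of 10 MSL and NSL subunits were marked in at least 1 library, where 37.0% of all genes were. So were 10 of 12 other acetyltransferase enzymes. Of the 17 genes of these lists marked in both conventional libraries, 10 had no peak in either E. coli library, near the 62.0% of all genes. They were Ncoa3, Taf12, Mbtd1 (promoter shared with Utp18), Dmap1, Brpf3, Ing4, Kansl1, Creb1, Cited2 and Acss1. Of the 19 marked in both germ-free libraries, 11 had no E. coli peak, against 65.8% of all genes. They were Naa60, Atxn7l3, Trrap, Mbtd1, Brpf3, Brd1, Ing4, Hcfc1, Msl2, Creb1 and Dld. Creb1, which encodes a cAMP-responsive factor that recruits CBP, was marked in all 4 conventional and germ-free libraries, with folds of 4.95 and 11.6 in conventional and 6.35 and 10.1 in germ-free mice. Brpf3, a scaffold for HBO1, was marked in the same 4 libraries, as were Mbtd1 and Ing4. The share of all protein-coding genes with this pattern was not counted here. The Brpf3 folds were 7.08 and 8.69 in conventional and 5.19 and 6.33 in germ-free mice. The strongest Creb1 intervals of the 2 conventional libraries shared no base, and neither did those of the 2 germ-free libraries. Nor did the conventional and germ-free ones of the same replicate number overlap. At Brpf3, the strongest interval of germ-free replicate 2 overlapped none of the others, and those of conventional replicate 1 and germ-free replicate 1 did not overlap. No list gene was marked in both E. coli libraries and neither of another group.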

How the data were processed

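H3K9ac immunoprecipitation was profiled in 6 libraries, 2 per housing group, grouped and numbered by the labels. Per the labels, reads were single-end, 50 bases, at a nominal 20 M reads per library. The tools named in the submitters' processing notes are MACS2 2.1.1.20160309 and Bowtie 1.2.0, with build mm10. Not given in the sources used here are options and any input control. Per the file headers, a deposited list (1 per library) gave the pileup signal at the summit, the -log10 p-value and -log10 q-value, and the fold enrichment (a ratio to that library's background). For germ-free replicate 2 the header had 1 name more than the cells, without pileup and summit; its columns were identified from the values and its background from the steps between folds.

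Lines repeating an interval were merged with Python 3.11.15 and pandas 2.3.3, and figures used matplotlib 3.10.9. Germ-free replicate 2 had no repeated lines (17094 lines for 17094 intervals), whereas each of the other lists had some. Of 10621 gene names, 10594 matched the RefSeq table of GRCm38.p6. A promoter peak overlapped 1 kb on either side of a start site that the lists, or else the table, gave. Intervals are 1-based, with positions relative to the start site in the direction of the gene. Ranks are by q-value within a list, and intervals with equal q-values all take the best rank of the tie. Top percentages follow from these ranks. No count test could be run on peak lists, and scores were not compared between lists. Interval functions and the exact tests were checked on simulated data. Members, lists and tests were chosen with earlier results of these data known. The genes named besides the 8 were those of 7 related lists with a peak in all 6 libraries, in both libraries of one group and neither of another, or with the pattern of one of the 8. Alternatives were a window of 2.5 kb, any interval, a -log10 q of 5 or more, the 870 most significant intervals of each list, 100 bases of overlap, promoter intervals alone for the covered length, covered length as a share of the list, and each library left out.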

Additional observations from a re-analysis of the deposited data

How the results depend on the processing

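The call of Ep300 in all 6 libraries held under each of the alternatives tried. At a -log10 q of 5 or more, the call in E. coli replicate 2 rested on the interval from -688 to -504 bases (-log10 q of 7.58). The interval over the start site in that library, at 2.41, did not pass. With a promoter window of 2.5 kb, or with any interval counted, Kat2b became the 1 gene of the 8 called in both germ-free libraries and absent with E. coli. Its added call in germ-free replicate 2 was the intronic interval at 3.80-fold, the lowest fold of that list. That interval shared no base with those of germ-free replicate 1. With the 1 kb window, 65.8% of all genes marked in both germ-free libraries had no E. coli peak. When -log10 q had to reach 5, 1 and 3 of the 8 genes were left in the conventional libraries and 3 in germ-free replicate 2. Of all protein-coding genes, 3.99%, 16.5% and 15.7% were left in these libraries. At this setting 0 of the 8 were marked in both conventional and neither E. coli library. With each list cut to its 870 top intervals that count was also 0. Ep300 alone was then left in conventional replicates 1 and 2 and germ-free replicate 2 (1 each). Of all protein-coding genes, 2.54%, 3.27% and 2.94% were left there. Requiring 100 bases of overlap moved no count. Leaving out single libraries gave 1 to 4 genes in both conventional and neither E. coli library, 0 to 1 for conventional but not germ-free, 0 to 2 for germ-free but not conventional and 0 to 5 for germ-free but not E. coli. The Ep300 covered length, as a share of the list, turned to -0.685, 0.341 and 1.03 per mille for conventional minus E. coli, conventional minus germ-free and E. coli minus germ-free. Conventional minus germ-free ran from -0.942 to 0.748 kb without single libraries. With the replicate number as a replicate block, the differences were 1.57, -0.0970 and -1.67 kb, with a smallest possible p of 0.5; nothing in the labels says that the numbers pair the libraries. The cause of these shifts was not tested. An absence says only that no interval was called: the lists hold nothing below their lowest fold, and the part of depth and list length was not tested.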

Other observations

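Of the 87 related genes, 19 had no promoter peak in any library, as Kat2a and 63.0% of all protein-coding genes did. They included the helicase subunits Ruvbl1 and Ruvbl2 of the TIP60-p400 complex, and the adaptor Tada2a and the reader Sgf29 from the list of SAGA or ATAC subunits. The cytoplasmic enzyme Hat1 and Acss2, which makes acetyl-CoA from acetate, were also among them. For acetyl-CoA supply, 7 of 10 genes were marked in at least 1 library, 1 and 6 of them in conventional mice, none with E. coli and 1 and 5 in germ-free mice. Of all protein-coding genes 37.0% were marked in at least 1 library, and 4.18% and 1.86% in the E. coli libraries, so that 0 of 10 genes there is near the background. Acly, which makes acetyl-CoA from citrate, had the pattern of Kat5 and Kat8, a call in germ-free replicate 2 alone.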
